A study of Mus musculus with 14 samples.

Results

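The genes described here are 44 genes of the skeletal muscle contractile apparatus, measured by RNA sequencing of mouse neck skin in 14 libraries. The members are a list of gene symbols chosen by name: myosin heavy and light chains, thin filament proteins, sarcomere scaffolds, calcium handling proteins and muscle energy enzymes. All 44 symbols were found among the 35328 genes of the count table, and all 44 passed the filter on low counts that left 20940 genes for testing. Of the members, 15 were listed as fast fibre genes, 7 as slow fibre genes, and 22 were given no fibre type.

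Every mouse was female and on a C57BL/6J background, and the series design gives 1 mouse per sample, without naming the untreated pair. In 12 of the libraries the neck skin had been treated for 6 days with MC903, also called calcipotriol, a vitamin D-like compound that brings on dermatitis, at 1 nmol in 100 µL a day on shaved skin. The cKO group (n = 3, age 6 to 7 weeks) carried Pdgfra-CRE and Il4ra fl/fl, so that the interleukin-4 receptor alpha gene is deleted in cells with a history of Pdgfra expression, such as fibroblasts. The fl/fl group (n = 3, age 6 to 7 weeks) carried Il4ra fl/fl without the Cre, and neither of these groups was injected. The MAR1 group (n = 3, age 6 weeks) was wild type and received the antibody MAR1, which binds the IgE receptor and is used to deplete basophils, in doses of 20 µg, of which 3 preceded MC903 and the rest fell within its course. The isotype group (n = 3, age 6 weeks) was wild type and received a control antibody on the same schedule. The untreated group (n = 2, age 6 weeks) was wild type. Its library names differ only in a suffix, so whether they come from 1 mouse or 2 cannot be told from the labels, and whether vehicle had been applied is not stated. RNA came from whole frozen biopsies cut into 20 µm sections, so any muscle in the biopsy was extracted with the skin.

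Mouse skin carries a thin sheet of skeletal muscle beneath the fat, the panniculus carnosus, and larger neck muscles lie below it. A muscle fibre shortens when myosin heads of the thick filament pull on actin in the thin filament, after calcium released from the sarcoplasmic reticulum has bound troponin. Fast and slow fibres use different genes for the same parts: Myh4, Myh1 and Myh2 encode the fast heavy chains and Myh7 the slow one, and troponins and light chains come in fast and slow pairs as well.

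Promoter sequence, taken from RefSeq on build GRCm38.p6 as 250 bases before and 50 after the gene start, was found for 33 of the 44 members. The 4 below are shown as examples of genes described here: a fast heavy chain, the fast fibre calcium buffer Pvalb, the slow light chain Myl3, and the slow troponin Tnni1. For Pvalb and Tnni1 the table holds more than 1 start and the first listed is printed. Capitals mark matches, on either strand, to the E-box (CANNTG, bound by MyoD family factors), the MCAT box (CATTCC, bound by TEAD factors), the TATA box (TATAAA), and the MEF2 and CArG motifs, which are bound by MEF2 factors and by SRF.
Myh4: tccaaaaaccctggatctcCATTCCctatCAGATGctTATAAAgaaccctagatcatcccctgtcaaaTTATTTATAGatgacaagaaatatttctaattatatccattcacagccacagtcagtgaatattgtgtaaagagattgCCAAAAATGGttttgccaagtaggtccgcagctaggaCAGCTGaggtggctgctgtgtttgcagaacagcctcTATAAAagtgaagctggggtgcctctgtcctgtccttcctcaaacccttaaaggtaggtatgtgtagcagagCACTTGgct
Pvalb: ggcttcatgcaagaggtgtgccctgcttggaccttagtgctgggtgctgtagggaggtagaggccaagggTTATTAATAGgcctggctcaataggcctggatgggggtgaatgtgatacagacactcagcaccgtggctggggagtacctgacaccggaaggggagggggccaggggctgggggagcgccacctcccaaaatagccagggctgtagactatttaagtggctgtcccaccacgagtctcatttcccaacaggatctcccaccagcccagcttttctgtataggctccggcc
Myl3: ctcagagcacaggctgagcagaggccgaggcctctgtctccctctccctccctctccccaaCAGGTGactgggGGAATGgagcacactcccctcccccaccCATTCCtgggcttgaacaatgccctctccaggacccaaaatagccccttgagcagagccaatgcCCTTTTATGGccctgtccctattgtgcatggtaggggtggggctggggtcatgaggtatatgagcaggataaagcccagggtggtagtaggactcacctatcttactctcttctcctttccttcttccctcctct
Tnni1: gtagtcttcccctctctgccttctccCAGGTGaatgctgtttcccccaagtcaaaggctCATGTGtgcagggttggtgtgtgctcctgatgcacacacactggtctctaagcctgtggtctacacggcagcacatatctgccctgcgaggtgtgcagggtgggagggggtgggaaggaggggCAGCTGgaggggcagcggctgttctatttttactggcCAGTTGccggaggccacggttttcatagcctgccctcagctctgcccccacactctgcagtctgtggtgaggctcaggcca

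These windows lie at chr11:67237562-67237861 (plus strand) for Myh4, chr15:78206351-78206650 (minus strand) for Pvalb, chr9:110763428-110763727 (plus strand) for Myl3 and chr1:135799171-135799470 (plus strand) for Tnni1. The Myh4 window held 3 E-boxes, 3 TATA boxes, and 1 match each to MCAT, MEF2 and CArG, with a TATA box match lying inside the MEF2 match. The Pvalb window held 1 MEF2 match, and Myl3 held 1 E-box, 2 MCAT boxes and 1 CArG match. Tnni1 held 4 E-boxes and none of the other motifs. Over the 33 members an E-box stood in 84.8% of windows, against 72.3% of the 32851 windows in the table. The members enter with 1 start per gene, the first listed, while the 32851 windows include every listed start. The MCAT box stood in 36.4% of member windows and 14.7% of all windows, MEF2 in 21.2% and 3.19%, CArG in 12.1% and 1.63%, and the TATA box in 18.2% and 13.6%. These are counts of letters in a short window, and no factor was measured.

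Library depth was 16.5 to 30.8 M counts in cKO, 45.1 to 48.0 M in fl/fl, 5.78 to 10.6 M in MAR1, 34.3 to 35.6 M in isotype and 37.5 to 55.3 M in untreated. Il4ra, the floxed gene, had 70.6, 67.7 and 14.4 CPM in the cKO libraries, against 214, 145 and 176 CPM in the fl/fl libraries (log2 -1.81 ± 0.57, adjusted p = 0.0427); counts of the whole gene do not isolate the deleted part. It was lower in wild-type MAR1 skin too, at 45.7, 23.2 and 9.0 CPM, against 195, 178 and 192 CPM with isotype (log2 -2.86 ± 0.60, adjusted p = 0.00204), so a lower level was not confined to the cKO libraries. Levels are in CPM, which are counts scaled to library size with TMM factors (edgeR's trimmed-mean scaling). Keratinocyte markers took 0.374% to 3.61% of counts, so every library held epidermal RNA. They took 0.73, 0.55 and 0.37% in MAR1, below the 1.92, 3.61 and 3.00% with isotype. The MAR1 libraries stood apart: olfactory and vomeronasal receptor genes, which are genes of sensory neurons of the nose, took 3.86, 7.49 and 9.29% of their counts, against 0.439, 0.269 and 0.400% with isotype. In cKO these genes took 1.48, 0.467 and 2.58%, against 0.0768, 0.0479 and 0.0495% in fl/fl. Mitochondrially encoded genes took 1.71, 2.60 and 0.476% of counts in cKO and 4.18, 3.31 and 2.28% in fl/fl, with cKO library 2 above fl/fl library 3. They took 0.342, 0.244 and 0.128% in MAR1 and 2.14, 2.33 and 2.12% in isotype. Salivary gland markers took 0.0888% and 1.62% of counts in fl/fl libraries 1 and 2 and at most 0.00289% in any other library.

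The muscle genes together took 0.641, 0.0255 and 0.0937% of all counts in the 3 cKO libraries and 7.32, 2.64 and 1.74% in the 3 fl/fl libraries. They took 0.834, 0.318 and 0.159% in MAR1, 0.375, 0.285 and 0.369% in isotype and 0.363 and 2.77% in untreated skin. Over all libraries the share spanned a 287-fold range, with cKO library 2 lowest and fl/fl library 1 highest. Libraries of the same group differed by up to 25.2-fold in cKO, 7.61-fold in untreated, 5.24-fold in MAR1, 4.22-fold in fl/fl and 1.32-fold in isotype. The median coefficient of variation of a member was 134% in cKO, 73.2% in fl/fl, 74.9% in MAR1, 22.5% in isotype and 105% in untreated, so the isotype libraries were the most even. Fl/fl library 1 was the highest of the 14 libraries for 27 members, and cKO library 2 was the lowest for 37. In bulk RNA, fewer muscle fibres in a biopsy and less of these transcripts per fibre cannot be told apart.

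**Figure D1:**
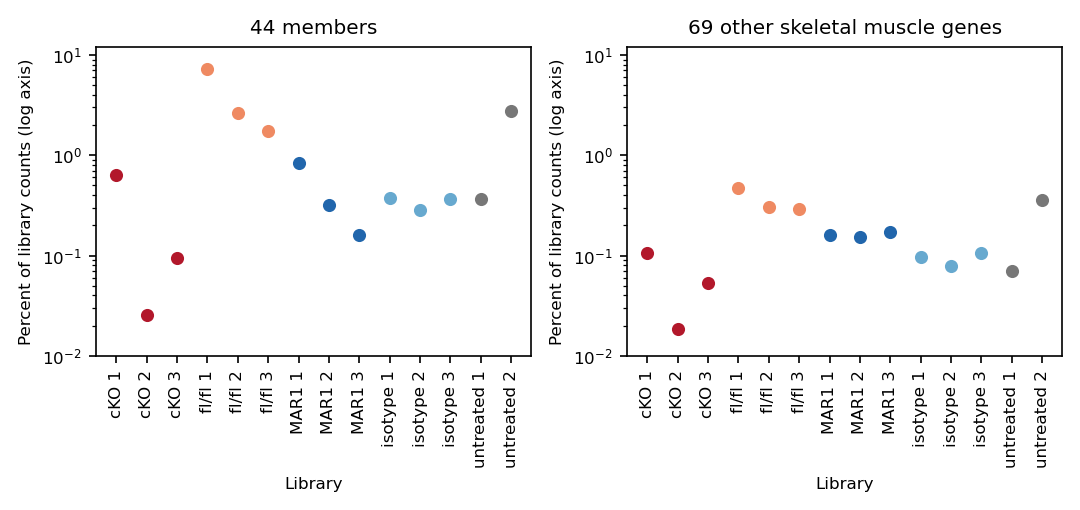
Percent of each library's counts taken by the 44 contractile genes (left) and by 69 other skeletal muscle genes (right), on log axes, with 1 point per library coloured by group. In the left panel the 3 cKO libraries lie between 0.0255% and 0.641%, below all 3 fl/fl libraries, which lie between 1.74% and 7.32%.

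**Figure D2:**
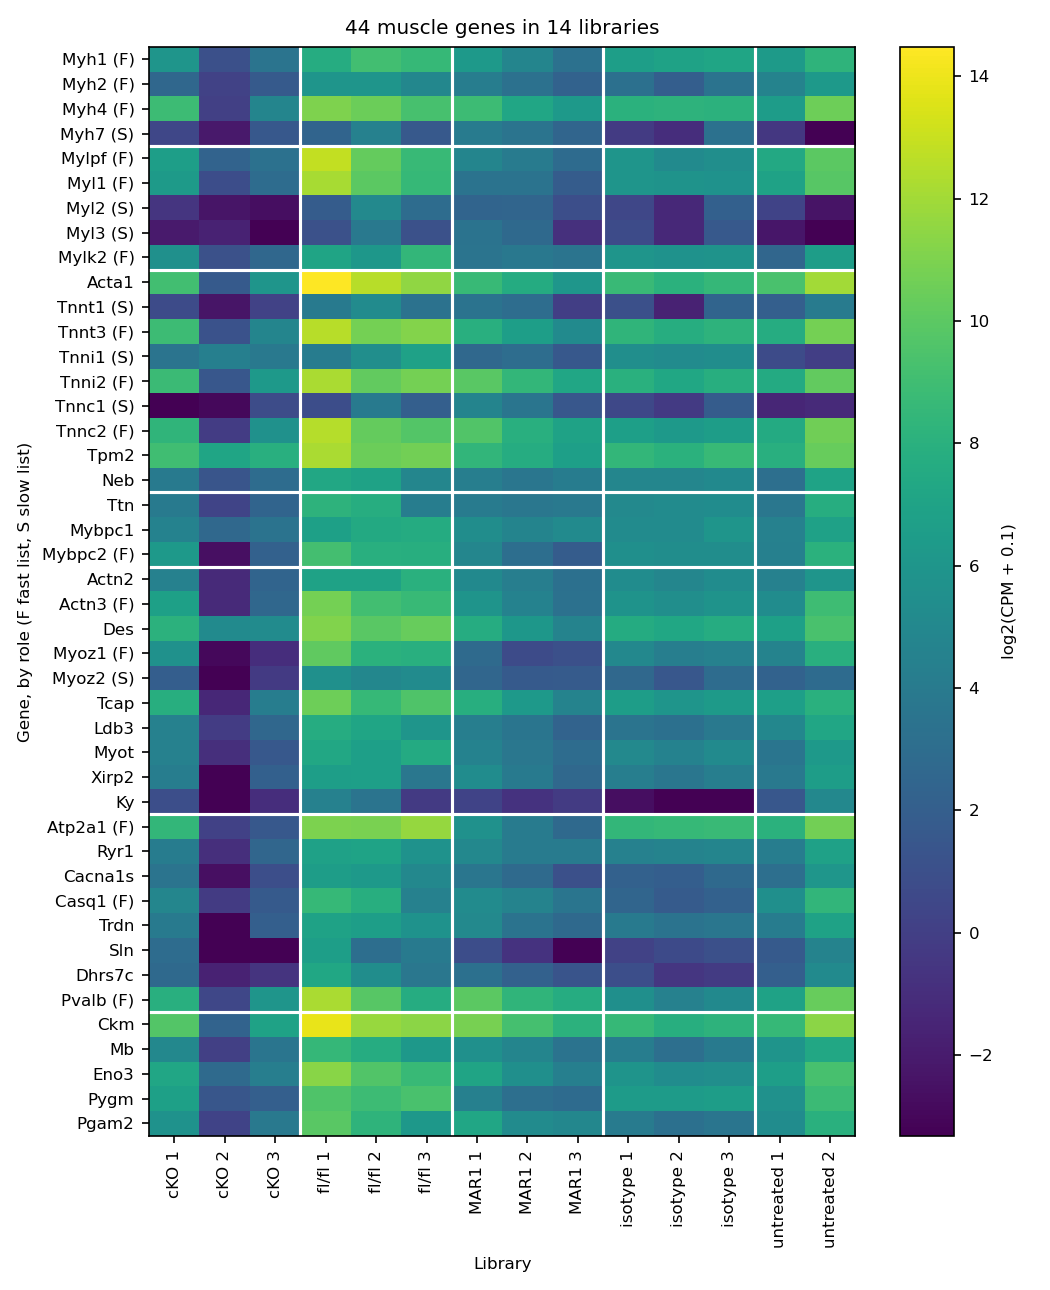
Level of each of the 44 genes as log2(CPM + 0.1) in each library, with rows grouped by role and columns by group; F and S mark genes of the fast and slow lists. The column of cKO library 2 is dark in most rows but not for Tnni1, Tpm2 and Des, and the 2 untreated libraries are dark for Myh7, Myl3, Tnnc1 and Tnni1.

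The first comparison asked whether Il4ra deletion in Pdgfra-lineage cells went with a change of the muscle genes in MC903-treated skin. All 44 members were lower in cKO than in fl/fl skin by their fitted change, 27 of them past the threshold (edgeR quasi-likelihood test, two-sided, Benjamini-Hochberg adjusted p under 0.05 over all 20940 genes). Over all genes 18.7% were called in this comparison, and 5.98% were called lower. The median log2 fold change of the members was -3.99, against 0.03 over all genes tested. It was -5.98 without cKO library 1, -3.11 without cKO library 2, -3.16 without fl/fl library 1, and between these values without any other single library. For 39 members every cKO library lay below every fl/fl library, which was so for 12.4% of all genes.

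All 4 light chain genes, whose proteins sit at the neck of the myosin head, fell. Mylpf, the fast regulatory light chain, had 98.7, 5.09 and 9.75 CPM in cKO, against 7240, 1243 and 404 CPM in fl/fl (log2 -6.29 ± 1.40, adjusted p = 0.00937). Its fast essential partner Myl1 had 81.5, 1.73 and 7.76 CPM in cKO and 4561, 1027 and 387 CPM in fl/fl (log2 -6.04 ± 1.43, adjusted p = 0.0124). Both genes were highest in fl/fl library 1, and the lowest fl/fl value stayed about 4 times the highest cKO value or more. The slow regulatory light chain Myl2 was scarce, with 0.566, 0.0979 and 0.0588 CPM in cKO and 3.57, 32.5 and 7.91 CPM in fl/fl (log2 -5.86 ± 1.36, adjusted p = 0.0103). Myl3, the slow essential chain, had 0.141, 0.228 and 0 CPM in cKO and 2.07, 14.5 and 2.01 CPM in fl/fl (log2 -5.51 ± 1.52, adjusted p = 0.0231). Both slow chains were highest in fl/fl library 2, unlike the fast chains. Mylk2, the kinase that phosphorylates the regulatory chain in skeletal muscle, had 47.9, 2.02 and 6.17 CPM in cKO and 132, 67.3 and 356 CPM in fl/fl, with an adjusted p of 0.0544.

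Of the 4 heavy chains, the motors themselves, Myh1 and Myh2 fell. Myh2, the heavy chain of fast oxidative fibres, had 6.08, 1.04 and 3.23 CPM in cKO and 61.0, 63.4 and 30.5 CPM in fl/fl (log2 -3.90 ± 0.72, adjusted p = 0.00407). Myh1, of intermediate fast fibres, had 62.1, 1.96 and 11.5 CPM in cKO and 207, 534 and 396 CPM in fl/fl (log2 -3.91 ± 1.07, adjusted p = 0.0242). Myh4, the heavy chain of the fastest fibres and the one with the highest mean CPM, had 462, 0.946 and 27.6 CPM in cKO, against 2128, 1411 and 636 CPM in fl/fl. The groups did not overlap for Myh4, but cKO library 1 came near fl/fl library 3, and the change missed the threshold (log2 -3.09 ± 1.48, adjusted p = 0.155). Slow Myh7 had 1.31, 0.131 and 2.94 CPM in cKO and 5.23, 22.4 and 2.98 CPM in fl/fl and was not called either (adjusted p = 0.18).

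In the thin filament 5 of 9 genes fell. Acta1, skeletal actin and the member with the highest mean CPM, had 546, 3.20 and 63.0 CPM in cKO, against 22840, 6020 and 2958 CPM in fl/fl (log2 -5.70 ± 1.52, adjusted p = 0.022). The groups were well apart, with cKO library 1 the nearest to the fl/fl libraries. Tpm2, a tropomyosin that smooth muscle and other cells also make, had 530, 144 and 241 CPM in cKO and 4677, 1413 and 1657 CPM in fl/fl (log2 -3.08 ± 0.72, adjusted p = 0.0107). In cKO library 2, Tpm2 alone made up 56.3% of the counts of all 44 members, against 4.97% to 7.17% in fl/fl. Neb, the giant ruler of the thin filament, had 15.3, 2.48 and 7.64 CPM in cKO and 160.2, 122 and 29.1 CPM in fl/fl (log2 -3.61 ± 0.90, adjusted p = 0.0155). The slow troponin T gene Tnnt1 had 1.59, 0.0979 and 1.06 CPM in cKO and 16.2, 37.5 and 10.2 CPM in fl/fl (log2 -4.54 ± 1.25, adjusted p = 0.0243). The change of Tnni1, the slow troponin I gene, was the smallest of the 44: 11.3, 20.4 and 14.4 CPM in cKO and 18.1, 44.2 and 119 CPM in fl/fl (log2 -1.98 ± 0.56, adjusted p = 0.0262), with overlapping groups. Tnnt3, the fast troponin T gene, had 472, 2.12 and 27.7 CPM in cKO and 6047, 1738 and 2275 CPM in fl/fl. The fast troponin C gene Tnnc2 had 323, 0.783 and 50.7 CPM in cKO and 5716, 1242 and 828 CPM in fl/fl, and the slow Tnnc1 had 0, 0.0326 and 1.65 CPM in cKO and 1.77, 15.5 and 4.01 CPM in fl/fl. The fast troponins Tnnt3, Tnni2 and Tnnc2 had log2 changes of -4.33, -3.87 and -4.38 but missed the threshold (adjusted p 0.0561, 0.0587 and 0.0617), as did the slow Tnnc1 at -3.74 (adjusted p = 0.0848).

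Of the 3 thick filament scaffold genes, Ttn and Mybpc1 fell. Mybpc1, myosin binding protein C of slow fibres, had the smallest adjusted p of all members: 23.6, 6.43 and 11.0 CPM in cKO, against 109, 178 and 194 CPM in fl/fl (log2 -3.55 ± 0.60, adjusted p = 0.00318). It stayed called in each of the 14 other settings tried for this comparison, the only member of the 27 to do so. Ttn, the molecular spring titin, had 16.1, 1.18 and 5.23 CPM in cKO and 291, 219.9 and 18.6 CPM in fl/fl (log2 -4.55 ± 1.16, adjusted p = 0.0176). Fl/fl library 3 was close to cKO library 1 for Ttn, while the other fl/fl libraries were more than 10 times higher. Mybpc2, the fast form of the binding protein and the highest of this role by mean CPM, had 76.7, 0.0653 and 4.52 CPM in cKO. It had 573, 245 and 225 CPM in fl/fl, and its change of -3.68 was not called (adjusted p = 0.104).

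At the Z-disc, where thin filaments are anchored, 5 of 10 genes fell. Actn2, an alpha-actinin that crosslinks actin, had 22.6, 0.326 and 5.23 CPM in cKO and 123, 121 and 252 CPM in fl/fl (log2 -4.14 ± 1.03, adjusted p = 0.016). Myot, myotilin, had 22.8, 0.424 and 2.94 CPM in cKO and 163, 106 and 191 CPM in fl/fl (log2 -4.13 ± 1.09, adjusted p = 0.0207). Both of these were highest in fl/fl library 3, unlike most members. Myoz2, a calcineurin-binding protein of slow fibres, had 3.93, 0 and 0.705 CPM in cKO and 49.3, 30.1 and 38.9 CPM in fl/fl (log2 -4.66 ± 1.10, adjusted p = 0.0116), and its fast partner Myoz1 had 51.0, 0.0326 and 0.411 CPM in cKO and 1108, 270.3 and 239 CPM in fl/fl (adjusted p = 0.0617). Des, desmin, an intermediate filament gene that smooth muscle shares, had 272, 36.6 and 37.7 CPM in cKO and 2226, 992 and 1270 CPM in fl/fl (log2 -3.69 ± 0.97, adjusted p = 0.0206). Ldb3, a PDZ and LIM domain protein of the Z-disc, had 22.3, 0.816 and 5.93 CPM in cKO and 213, 140.3 and 62.5 CPM in fl/fl (log2 -3.83 ± 0.98, adjusted p = 0.0181). Actn3, Tcap, Xirp2 and Ky were lower by -4.49, -3.42, -3.26 and -3.89 on the log2 scale without passing the threshold (adjusted p 0.0592 to 0.11).

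Of the 8 calcium handling genes, 4 fell. Ryr1, the calcium release channel, had 17.4, 0.424 and 5.88 CPM in cKO and 118, 129 and 54.2 CPM in fl/fl (log2 -3.67 ± 0.97, adjusted p = 0.0204). Cacna1s, the voltage sensor that opens it, had 11.2, 0.0653 and 1.88 CPM in cKO and 93.8, 76.1 and 32.4 CPM in fl/fl (log2 -3.94 ± 1.21, adjusted p = 0.0394). Casq1, the calcium store protein of fast fibres, had 29.2, 0.750 and 3.23 CPM in cKO and 394, 226 and 22.1 CPM in fl/fl (log2 -4.27 ± 1.28, adjusted p = 0.0352), with cKO library 1 above fl/fl library 3. Dhrs7c, a reductase of the sarcoplasmic reticulum, had 6.76, 0.228 and 0.529 CPM in cKO and 154, 43.1 and 13.0 CPM in fl/fl (log2 -4.79 ± 1.32, adjusted p = 0.0256). The calcium pump Atp2a1, with the highest mean CPM of this role, had 352, 1.01 and 2.88 CPM in cKO and 2014, 1948 and 3297 CPM in fl/fl and missed the threshold (log2 -4.35 ± 1.62, adjusted p = 0.0778). Its cKO libraries ranged from 1.01 to 352 CPM, while the fl/fl libraries lay within a factor of 2 of each other. Pvalb, Trdn and Sln were not called (log2 -4.28, -3.77 and -3.98; adjusted p 0.068, 0.0548 and 0.118).

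All 5 energy genes fell. Ckm, muscle creatine kinase, had 856, 5.03 and 121 CPM in cKO, against 14830, 3392 and 2672 CPM in fl/fl (log2 -4.41 ± 1.43, adjusted p = 0.0481). Mb, the oxygen store myoglobin, had 32.2, 0.946 and 11.9 CPM in cKO and 373, 209 and 71.3 CPM in fl/fl (log2 -3.86 ± 1.01, adjusted p = 0.0202). Neither gene overlapped between the groups, and both followed the order of the fl/fl libraries seen for Acta1. Eno3, the muscle form of the glycolytic enzyme enolase, had 146, 7.02 and 19.8 CPM in cKO, against 2523, 817 and 407 CPM in fl/fl (log2 -4.44 ± 1.18, adjusted p = 0.0218). Pgam2, the muscle phosphoglycerate mutase of the same pathway, had 53.1, 1.08 and 14.3 CPM in cKO, against 991, 309 and 72.5 CPM in fl/fl (log2 -4.32 ± 1.29, adjusted p = 0.0347). Pygm, which releases glucose units from glycogen, had 113, 2.61 and 4.0 CPM in cKO and 774, 482 and 659 CPM in fl/fl (log2 -4.0 ± 1.23, adjusted p = 0.0392).

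The change reached other muscle genes as well. Of 69 further skeletal muscle genes on a second list, 45 were lower and none higher in cKO (median log2 -3.60). Among those with the smallest p were Srl, a sarcoplasmic reticulum calcium-binding protein (log2 -4.19 ± 0.63, adjusted p = 0.00251), the small heat shock protein Hspb6 (-6.01) and the reticulum ion channel Tmem38a (-4.38). Of 8 smooth muscle markers, 1 was lower and none higher (median 0.17), and none of the 6 keratinocyte or 6 fibroblast markers was called by edgeR or DESeq2, with 0 at an unadjusted p under 0.05, where 35.1% of all genes fell below it. Markers of other cell types were lower in cKO too: 5 of 5 red blood cell markers (median -5.52), 3 of 6 B cell markers (-4.59), 4 of 6 T cell markers (-3.19) and 3 of 7 tested salivary gland markers (-12). Red blood cell markers took 0.0219, 0.00473 and 0.0228% of counts in cKO and 1.26, 0.306 and 0.181% in fl/fl, without overlap. B cell markers took 0.00255, 0.00113 and 0.00485% in cKO and 0.0979, 0.0218 and 0.000140% in fl/fl, and T cell markers took 0.00739, 0.00345 and 0.00839% in cKO and 0.0666, 0.0144 and 0.000509% in fl/fl. Among these 6 libraries both lists, like the salivary one, were highest in fl/fl libraries 1 and 2, and fl/fl library 3 lay below every cKO library for B and T cell markers while its muscle share lay above them all. The part of these differences in the muscle result was not tested. With fl/fl libraries 1 and 2 both removed, fl/fl library 3 alone stood for its group. The median of the members was then -2.78, against -3.99 with all libraries. Without cKO library 3 alone 4 members were called, without fl/fl library 1 alone 10, and without cKO library 2 alone 15. Over all genes, 2335, 3127 and 4103 were called in these settings, in that order.

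The MAR1 comparison asked whether MAR1 injection went with a change of muscle genes. Of the 44 members, 2 rose and 1 fell, where 49.1% of all genes were called in this comparison, 22.6% higher and 26.5% lower. The median of the members was -0.21, against 0 over all genes. With RLE scaling, which shifts all genes by 0.59 on the log2 scale here, the member median was 0.31, so no common direction is stated. Tnni1 fell, with 6.34, 7.94 and 2.85 CPM in MAR1, against 44.1, 38.4 and 43.2 CPM with isotype (log2 -2.86 ± 0.59, adjusted p = 0.00174). It was called in each of the 13 other settings, and the groups did not overlap. Pvalb, parvalbumin, which soaks up calcium in fast fibres and speeds relaxation, rose to 1043, 318 and 209 CPM in MAR1, against 45.7, 22.2 and 34.0 CPM with isotype (log2 3.95 ± 1.51, adjusted p = 0.0447). Ky, kyphoscoliosis peptidase of the Z-disc region, had 1.11, 0.502 and 0.750 CPM in MAR1 and 0.0570, 0 and 0 CPM with isotype (adjusted p = 0.037). With only 2 Ky counts over the isotype libraries, the ratio was 41.1 (95% Poisson interval 11.4 to 339, counting error only). The calls of Pvalb and Ky were lost in 8 and 7 of 13 settings, and with any single MAR1 or isotype library left out Tnni1 was the 1 member called.

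The makeup of the muscle signal was compared as well. Each gene's share of the summed counts of the 44 members does not depend on library scaling, and is given as a description without a test; shares sum to a fixed total, so some must be lower where others are higher. Atp2a1 made up 0.683%, 0.612% and 0.486% of member counts in MAR1, against 9.66%, 13.4% and 11.6% with isotype. Pvalb made up 13.7%, 11.4% and 15.2% in MAR1 and 1.23%, 0.760% and 0.921% with isotype. The 2 genes, both typical of fast fibres, thus stood on opposite sides, with every library of a group apart from every library of the other. Ckm was larger in MAR1, at 24.0%, 21.7% and 19.7%, against 10.4%, 7.98% and 7.94% with isotype. Acta1 was smaller in MAR1, at 5.30%, 7.08% and 4.83%, against 11.3%, 9.25% and 10.2%, and so was the fast light chain Mylpf, at 0.365%, 0.589% and 0.522%, against 1.65%, 1.25% and 1.19%.

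By the mean log2 share, MAR1 minus isotype, the lowest genes were Atp2a1 (-4.28), Myoz1 (-2.91), Pygm (-2.87), Tnni1 (-2.83) and Myl1 (-2.78). The highest were Ky (5.19), Pvalb (3.81), Myh7 (2.99), Tnnc1 (2.80), Casq1 (2.53), Dhrs7c (2.46) and Pgam2 (2.31). Fast and slow genes lay at both ends. Among the 7 fast and slow pairs, Tnni2 over Tnni1 per kilobase of transcript was 233, 66.7 and 79.6 in MAR1, against 8.76, 6.21 and 7.95 with isotype. Myl1 over Myl3 ran the other way, at 0.858, 1.34 and 6.64 in MAR1 and 34.5, 152 and 15.2 with isotype, as did Mylpf over Myl2, at 4.98, 2.89 and 3.81 and 44.8, 109.6 and 9.91. Myoz1 over Myoz2 was 1.10, 0.473 and 0.541 in MAR1 and 4.52, 6.57 and 2.63 with isotype. Tnnt3 over Tnnt1 was 21.9, 12.2 and 40.4 in MAR1 and 159, 912 and 56.1 with isotype, also without overlap. Tnnc2 over Tnnc1 was 31.3, 20.1 and 47.5 in MAR1 and 80.7, 106 and 27.6 with isotype, and Myh4 over Myh7 was 28.9, 13.2 and 15 and 365, 742 and 28.8; both of these overlapped through isotype library 3. In 6 of the 7 pairs the middle MAR1 library thus had the lower fast over slow ratio, and the troponin I pair was the exception. The median log2 fold change was -1.14 over the 15 fast genes and 1.41 over the 7 slow genes, on the TMM scale. MAR1 library 3 held few counts for the slow genes, 3 for Myl3 among them, so its ratios carry wide counting error.

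**Figure D3:**
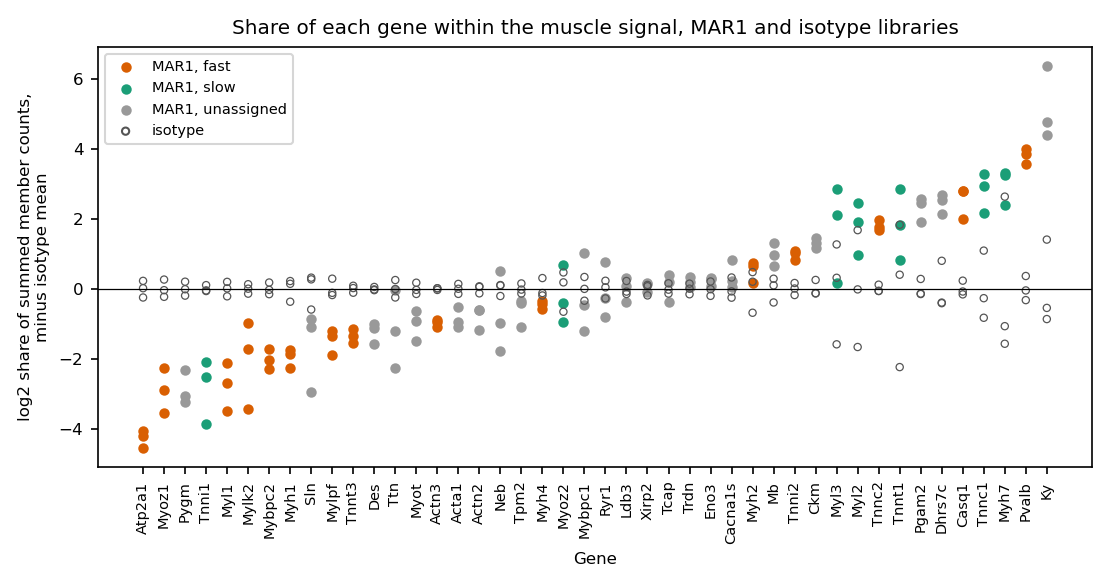
Share of each gene in the summed counts of the 44 members, as log2 and relative to the isotype mean, with filled points for MAR1 libraries (orange fast list, green slow list, grey no fibre type) and open points for isotype libraries. Atp2a1, Myoz1, Pygm and Tnni1 lie lowest in MAR1, Pvalb and Ky highest, and fast and slow genes appear at both ends.

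Of the 69 other muscle genes, 5 were higher and 8 lower in MAR1 than with isotype. The 4 with the smallest p were Hspb6 (0, 0 and 0 CPM in MAR1, 9.48, 8.05 and 14.3 CPM with isotype, adjusted p = 0.000566), Phkg1, a subunit of the kinase that activates glycogen phosphorylase (log2 3.94 ± 0.76, adjusted p = 0.00126), and the sarcomere regulators Klhl41 (log2 2.91 ± 0.64, adjusted p = 0.00286) and Klhl40 (log2 3.13 ± 0.78, adjusted p = 0.00592). Phkg1 had 312, 496 and 626 CPM in MAR1, 34.5, 25.1 and 33.7 CPM with isotype, 85.4, 31.2 and 159.9 CPM in cKO and 68.2, 34.2 and 16.4 CPM in fl/fl. In cKO library 3, which had the highest receptor gene share of its group, Phkg1 was at 160 CPM while Acta1 was at 63.0. Markers of other tissues differed too: 5 of 6 keratinocyte, 4 of 6 fibroblast and 3 of 8 smooth muscle markers were called lower in MAR1, none higher. Of 6 B cell and 6 T cell markers, 2 each were called higher and none lower. Over all genes, 26.5% were called lower and 22.6% higher. The part of this tissue content, the receptor gene reads, the mitochondrial share and the lower depth of the MAR1 libraries in the muscle gene differences was not tested.

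The fl/fl and isotype groups were both treated with MC903 and kept Il4ra, but come from different experiments, so genotype, injection and experiment cannot be told apart between them. All 44 members had a higher fitted level in fl/fl, 10 of them past the threshold, where 5.22% of all genes were called and 1.25% were called higher. The member median was 3.01, against -0.10 over all genes. For 36 members each fl/fl library lay above each isotype library, against 12% of all genes. Called were the light chain genes Mylpf (log2 5.97 ± 1.38, adjusted p = 0.0381) and Myl1 (5.13), Tpm2 (2.93), Myh2 (2.68), Ky, Casq1 (5.59) and Dhrs7c (6.05), and the energy genes Mb (3.91), Eno3 (4.69) and Pgam2 (5.16). The fl/fl levels of Mylpf and Acta1 given above stood well over those in the isotype libraries, which held 61.6, 36.4 and 44.1 CPM of Mylpf and 420.3, 270.1 and 378 CPM of Acta1. Casq1 had 394, 226 and 22.1 CPM in fl/fl and 5.55, 3.31 and 4.43 CPM with isotype, and Dhrs7c had 154, 43.1 and 13.0 CPM in fl/fl and 1.79, 0.604 and 0.758 CPM with isotype. The fl/fl values of Mb, Eno3 and Pgam2 given above were all higher than the isotype values, which were 18.5, 9.0 and 16 CPM for Mb. With isotype, Eno3 had 59.9, 40.3 and 44.6 CPM and Pgam2 had 16.6, 9.61 and 12.3 CPM. Myl1 had 62.5, 55.7 and 52.9 CPM with isotype, Myh2 had 9.23, 3.91 and 11.1 CPM and Tpm2 had 356, 258 and 399 CPM. Ky had 22.3, 11.2 and 0.708 CPM in fl/fl, a ratio of 595 to isotype (95% Poisson interval 165 to 4910, counting error only). Of the 69 other muscle genes, 13 were higher and none lower (median 2.43), with Srl (3.20), Cox7a1 (5.22), Hspb6 (3.67) and Sypl2 (5.95) at the smallest p. The member median was 2.41 to 3.55 with any 1 library left out. Markers of other cell types were higher in fl/fl as well: 5 of 5 red blood cell markers (median 5.67), 3 of 6 B cell (6.12), 4 of 6 T cell (4.34) and 1 of 7 salivary gland markers (12), and their part was not tested. The members called fell to 0 without fl/fl library 1, without fl/fl library 2, or without any single isotype library. Calls over all genes fell in the same settings, from 1094 to between 0 and 77.

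Isotype skin against untreated skin compared MC903-treated with normal wild-type skin, but only the isotype mice are listed as injected with antibody. MC903 and injection cannot be told apart here. Tnni1 rose and Ky fell, and the other 42 members were not called, where 3.07% of all genes were called, 1.35% higher and 1.72% lower. Tnni1 had 44.1, 38.4 and 43.2 CPM with isotype, against 1.57 and 0.900 CPM in untreated skin (log2 5.07 ± 0.77, adjusted p = 0.00549). Ky had 0.0570, 0 and 0 CPM with isotype and 2.69 and 31.4 CPM in untreated skin (adjusted p = 0.0262). The call of Ky was lost without any single isotype library and without untreated library 2, where that of Tnni1 was kept. With the untreated libraries summed to 1, neither gene was called by edgeR, and Tnni1 had an adjusted p of 0.0593 (2.98e-12 to 0.0443 in the other settings). The untreated libraries differed widely from each other: Acta1 had 669.7 and 4154 CPM and Mylpf 171 and 1031 CPM in untreated libraries 1 and 2. The member median was -1.70, against 0.11 over all genes, and it turned to 0.71 without untreated library 2. Of the other muscle list, 2 of 69 genes were called, Sypl2 (-6.10) and Srl (-2.51), both lower with isotype. Of 6 adipocyte markers, 4 were called lower with isotype (median -3.37), and of 6 fibroblast markers 0 were called. Adipocyte markers took 0.15, 0.11 and 0.16% of counts with isotype and 0.95 and 0.72% in untreated skin. Fibroblast markers took 0.42, 0.35 and 0.35%, against 1.10 and 2.05%. The part of this tissue content in the muscle differences was not tested. By mean log2 share of the member counts, isotype minus untreated, Tnni1 (6.57), Myl3 (6.43) and Myh7 (5.50) were highest and Ky (-7.10), Casq1 (-3.40) and Dhrs7c (-2.24) lowest. Slow genes did not all lie on one side, since Tnnt1 was at -1.19, and Myh7 and Myl3 were at 0 counts in untreated library 2.

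In fl/fl against untreated skin, MC903 and the Il4ra genotype both differed and cannot be told apart. Tnni1 alone was called (log2 5.60 ± 0.79, adjusted p = 0.00452), where 1.72% of all genes were called and 0.769% were called higher. The member median was 1.71, against 0 over all genes; it was 0.65 without fl/fl library 1, 0.87 without untreated library 1 and 3.68 without untreated library 2. None of the 69 other muscle genes was called by edgeR (6 at an unadjusted p under 0.05, as were 18.3% of all genes; 2 called higher by DESeq2). The 7 slow genes had a median of 4.58 and the 15 fast genes a median of 1.55. The slow median was the value of Myl2, which had 63 and 4 counts in the untreated libraries. Myh7 had 36 and 0 counts there, Myl3 6 and 0 and Tnnc1 16 and 14, so these changes carry wide counting error. The other slow genes, Tnni1, Tnnt1 and Myoz2, held 38 counts or more in each. Myl3 had 2.07, 14.5 and 2.01 CPM in fl/fl and 0.106 and 0 CPM in untreated skin, and Myl2 had 3.57, 32.5 and 7.91 CPM in fl/fl and 1.11 and 0.0947 CPM in untreated skin. Neither passed the threshold (adjusted p 0.089 and 0.13). Without untreated library 2 no member was called.

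Fast fibre genes made up most of the signal of the fast and slow lists. Summed per kilobase of transcript, slow genes were 0.696, 49.8 and 5.37% of fast plus slow in cKO and 0.200, 1.82 and 1.94% in fl/fl. They were 1.96, 3.70 and 2.00% in MAR1, 4.05, 4.13 and 5.47% in isotype and 0.847 and 0.228% in untreated skin. The high slow share of cKO library 2 came with the fewest muscle counts of any library, and 97.1% of its slow signal was Tnni1. Without Tnni1 the slow share was 0.264, 2.84 and 1.46% in cKO and 0.163, 1.45 and 0.733% in fl/fl. It was then 1.83, 3.21 and 1.65% in MAR1 and 1.04, 0.50 and 2.36% in isotype, so the MAR1 libraries, which lay below isotype with Tnni1 counted, no longer did so. In untreated skin it was 0.747 and 0.221%, overlapping isotype.

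Among the heavy chains, compared per kilobase, Myh4 led in each library but cKO library 2, where Myh1 led. It made up 87.0, 23.4 and 61.4% of the 4 in cKO, 88.7, 69.7 and 59.9% in fl/fl, 80.7, 75.5 and 80.2% in MAR1, 70.2, 70.0 and 62.4% in isotype and 46.4 and 80.2% in untreated skin. Myh1 was 13.5, 13.7 and 9.87% in MAR1 and 27.2, 28.9 and 32.9% in isotype, without overlap. Slow Myh7 was 2.79, 5.74 and 5.34% in MAR1 and 0.192, 0.0944 and 2.17% in isotype, again without overlap, though isotype library 3 was near MAR1 library 1.

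**Figure D4:**
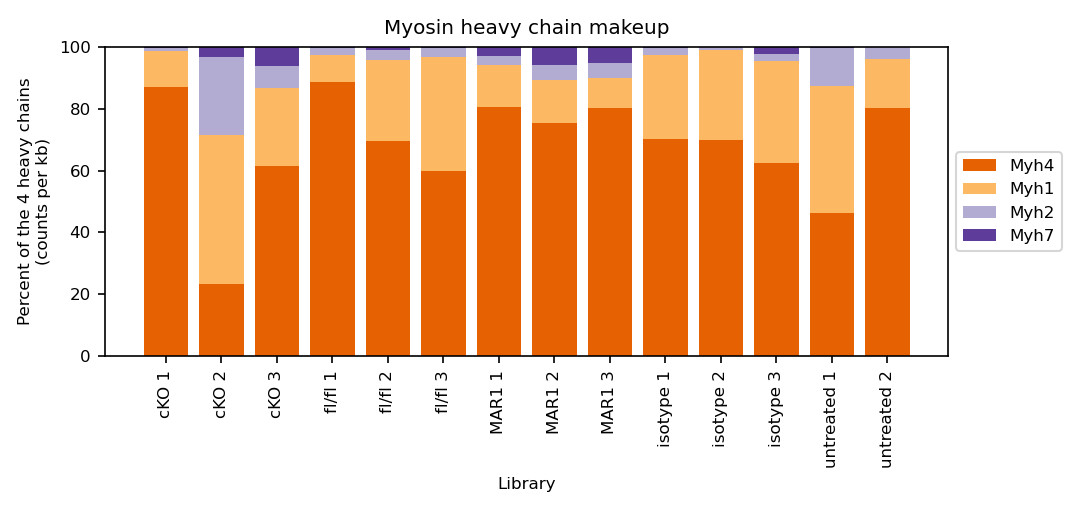
Makeup of the 4 adult myosin heavy chains per library, as percent of their counts per kilobase, stacked to 100%. Myh4 takes 75.5% to 80.7% in MAR1 and 62.4% to 70.2% in isotype, and cKO library 2, which holds few muscle counts, shows Myh4 at 23.4%.

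Tnni1 did not follow the other slow genes. It made up 97.1% of the slow signal in cKO library 2 and 3.30% in untreated library 2. Its level was 11.3 to 20.4 CPM in cKO, 18.1 to 119 CPM in fl/fl, 2.85 to 7.94 CPM in MAR1, 38.4 to 44.1 CPM in isotype, and 0.900 and 1.57 CPM in untreated skin. The untreated libraries lay below all others, the MAR1 libraries came next, and cKO and fl/fl overlapped. Its fast counterpart Tnni2 had 449, 2.71 and 78.0 CPM in cKO, 4805, 1171 and 1773 CPM in fl/fl, 988, 354 and 152 CPM in MAR1, 258, 159 and 229 CPM in isotype and 189 and 1204 CPM in untreated skin. In cKO library 2, where Tnni2 was at 2.71 CPM, Tnni1 was at 20.4 CPM, more than in either of the other cKO libraries. In untreated library 2, where Tnni2 was at 1204 CPM, Tnni1 was at 0.900 CPM.

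**Figure D5:**
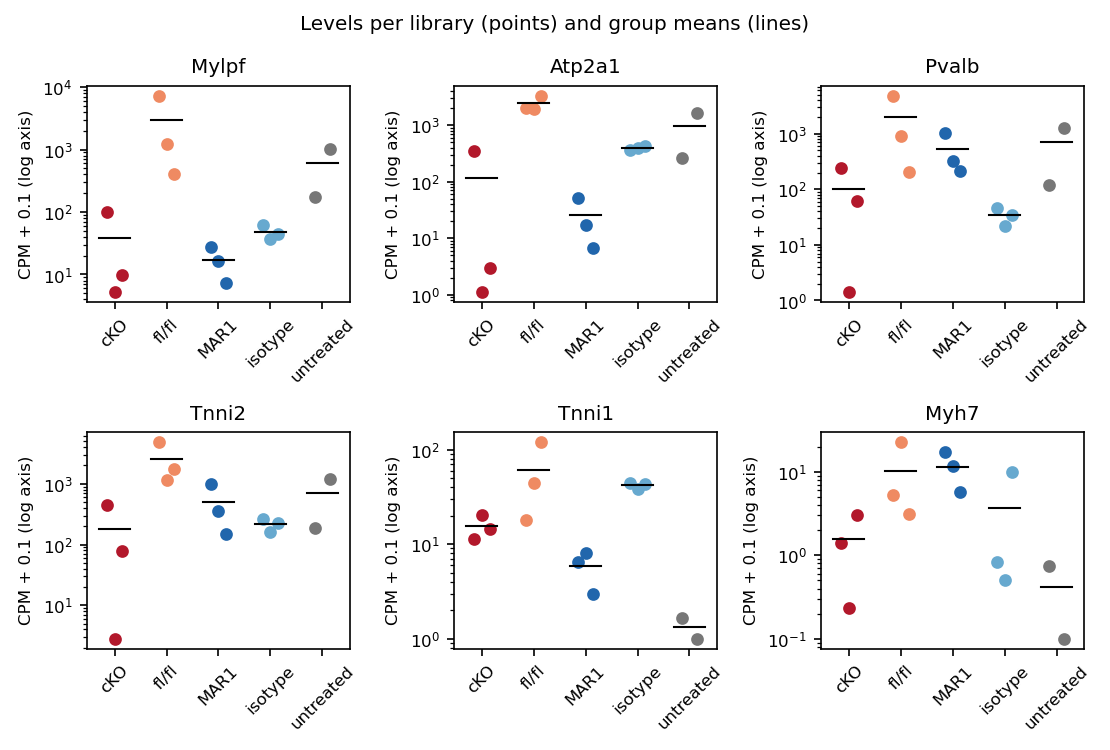
CPM + 0.1 on log axes for 4 fast fibre genes (Mylpf, Atp2a1, Pvalb, Tnni2) and 2 slow ones (Tnni1, Myh7), with 1 point per library and a line at each group mean. Tnni1 is lowest in untreated skin, and Atp2a1 is lower in MAR1 (6.75 to 51.9 CPM) than with isotype (360.2 to 429 CPM), while Pvalb is higher.

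Some libraries resembled those of other groups in makeup. The median absolute difference of log2 shares over the 44 members was 0.34 to 0.57 between MAR1 libraries, 0.25 to 0.36 between isotype libraries, and 0.93 to 1.44 between a MAR1 and an isotype library. In fl/fl the 3 libraries were 0.93 to 1.25 apart. The closest fl/fl and isotype pair differed by 0.37 (fl/fl library 3), and the closest fl/fl and untreated pair by 0.31 (fl/fl library 2). Fl/fl libraries 2 and 3 thus lay nearer to libraries of other groups than to each other.

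The difference between the 2 effects, cKO against fl/fl minus MAR1 against isotype, was tested as an interaction. It was negative for 43 of 44 members and called for 11, where 7.96% of all genes were called and 1.82% were called lower. The member median was -3.87, against 0.41 over all genes, and ran from -6.37 without cKO library 1 to -2.99 without cKO library 2 when single libraries were left out. Called were Myh2, Myl2, Myl3, Tnnt1, Mybpc1, Ky, Casq1, Dhrs7c, Pvalb, Mb and Pgam2. Tnni1 had the only positive value (log2 0.89, adjusted p = 0.467). The count of called members was 0 without fl/fl library 2, without any single isotype library, without MAR1 library 2 or 3, or without fl/fl libraries 1 and 2 together. It was 4 without cKO library 2 or fl/fl library 1, 5 without MAR1 library 1 and 22 without cKO library 1. Of the 69 other muscle genes 11 were called, all lower.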

How the data were processed

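Polyadenylated RNA of 14 skin samples was sequenced, and the authors deposited 1 table of estimated counts per gene symbol, not normalized. Per the submitters' processing notes, Salmon 1.2.1, DESeq2 1.44.0 and genome build GRCm39 were used; which step made the table is not given in the sources used here. Table columns were matched to samples by library name. All 35328 rows carry a gene name. Replicate libraries differed by far more than counting noise, and none was counted as a duplicate.

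Counts were rounded to whole numbers and fitted with edgeR 4.0.16 under R 4.3.3, in 1 model of the 5 groups over the 14 libraries, after TMM scaling and filterByExpr, with robust quasi-likelihood tests (two-sided) and Benjamini-Hochberg adjustment over 20940 genes, at a threshold of 0.05. The common dispersion was 0.361 with 9 residual degrees of freedom. The script was tested on simulated data. Log2 fold changes are given ± SE, obtained from the change and its F statistic. CPM were computed from the counts and TMM-scaled library sizes. Levels of different genes were compared per kilobase of the GENCODE M21 transcript with the longest coding sequence. Shares use counts plus 0.5 on the log2 scale. P-values set each change against the spread between samples, estimated over all groups. That spread was uneven, with a median coefficient of variation of a member of 22.5% in isotype and 134% in cKO. A shared estimate can therefore misstate the error of a single group. Intervals reflect only the error of counting, as the labels describe no molecular identifiers.

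The members, the role, fibre and marker lists and the choice of tests were made with earlier results of these data known. By a rule set with the design, all members are given by role, with values per library, in the comparison described, for those called, for the highest of each role and for fast and slow pairs, and up to 4 genes of smallest p for other lists. One gene named by that rule is not reported here. Alternatives were RLE scaling, TMM factors computed without muscle genes, the tool DESeq2 1.42.0, all genes with any count, genes reaching 1 CPM in 3 libraries or more, fits of the compared groups alone, both untreated libraries as 1 sum, a block for the replicate number, and every library omitted in turn. The removal of fl/fl libraries 1 and 2 together, the slow list without Tnni1 and counts not divided by length were chosen after seeing the data.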

Additional observations from a re-analysis of the deposited data

Results flagged for a closer look

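The change in cKO against fl/fl differed from the change in MAR1 against isotype, by the test of the interaction in edgeR, for 11 of the 44 muscle genes, each at an adjusted p of 0.0265 to 0.0462. In every case the first change lay below the second. Over all genes, 7.96% were called in this test and 1.82% were called lower. None of the 11 genes kept its call in every other setting. No member was called when certain single libraries were left out, as given above. The differences (log2, cKO effect minus MAR1 effect) were largest for Ky (-8.99), whose isotype level rests on 2 counts, and for Pvalb (-8.22), which rose in MAR1. Among calcium handling genes they were -7.15 for Dhrs7c and -6.77 for Casq1. Slow fibre genes were there too, with -7.42 for Myl3, -6.96 for Myl2 and -5.96 for Tnnt1. The remaining genes were Pgam2 (-6.84), Mb (-4.87), Myh2 (-4.35) and Mybpc1 (-3.18). Each of the 4 groups enters this difference, so the wide spread of the fl/fl and cKO libraries and the high receptor gene share of the MAR1 libraries bear on it, and their part was not tested.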

How the results depend on the processing

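Of 817 values of called members under other settings, 461 kept their call, 356 lost it and none changed sign. Members called in cKO against fl/fl numbered 27, where 3908 of 20940 genes were called. They numbered 15 with no filter (3550 of 26347 genes) and 7 with only the groups compared (1410 of 17037 genes). With 1 library left out they numbered 4 to 40, and 2335 to 4234 genes were called. In MAR1 against isotype they numbered 3, where 10272 of 20940 genes were called. They numbered 8 with DESeq2 (11482 of 20178 genes), 1 with no filter (9531 of 26347) and 19 with only the groups compared (12223 of 18068). With any 1 library left out, 1 member was called, and 7343 to 10260 genes were. In fl/fl against isotype they numbered 10, where 1094 of 20940 genes were called. They numbered 27 with DESeq2 (3347 of 19193 genes), 2 with no filter (853 of 26347) and 29 with only the groups compared (460 of 16710). With 1 library left out they numbered 0 to 11, and 0 to 3176 genes were called. In isotype against untreated they numbered 2, where 643 of 20940 genes were called. They numbered 11 with DESeq2 (2178 of 19687 genes) and 16 with only the groups compared (3444 of 17504). With any 1 isotype library left out, 1 member was called, and 108 to 132 genes were. In fl/fl against untreated the count was 1, and 5 with DESeq2, 0 with only the groups compared, and 0 to 1 with 1 library left out. Where an untreated library is left out, the lone one is assumed to vary like the other groups. For the interaction it was 11, and 29 with DESeq2, 4 with no filter, 0 without fl/fl libraries 1 and 2, and 0 to 22 with 1 library left out. Over all genes, 360 of 20940 were called in fl/fl against untreated skin, 2124 of 20178 with DESeq2, and 1666 of 20940 in the interaction. The causes were not tested.

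The replicate numbers of the sample titles showed no pairing. Correlations of same-numbered libraries ran from -0.35 to 0.26, and no pair of groups had every library closest to its own number. Library names carry numbers that differ in part from the titles, so any other pairing of mice could not be seen this way. The 2 untreated libraries deviate from their mean by opposite amounts, so their correlations mirror each other by construction. With the replicate number as a block, 26 members were called in cKO against fl/fl, 2 in MAR1 against isotype and 0 in fl/fl against isotype. There were 1 in isotype against untreated, 1 in fl/fl against untreated and 1 in the interaction. Over all 20940 genes, 3063 were called for cKO and 9572 for MAR1. The numbers were 175 in fl/fl against isotype and 253 in isotype against untreated.

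The member median in MAR1 against isotype reversed to 0.31 with RLE scaling and to 0.31 with DESeq2, and ran from -0.67 to 0.078 with 1 library left out. In isotype against untreated that range was -2.58 to 0.71, with the one positive value without untreated library 2. With RLE scaling the median of all tested genes shifted 0.59 for MAR1, 0.12 for cKO and -0.46 for the interaction. The mean slow share in isotype, 4.55%, was 1.30% without Tnni1 and 3.32% with counts not divided by length. Its range with 1 library left out was 4.09% to 4.80%. In the shallow MAR1 libraries and in cKO library 2, members at a few counts have wide counting error.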

Other observations

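Some muscle genes outside the 44 did not follow the adult contractile set. Myh8, the perinatal heavy chain, had 53.9, 18.1 and 113 CPM in cKO, against 4.79, 3.88 and 0.531 CPM in fl/fl (log2 4.32 ± 1.04, adjusted p = 0.0135), while all adult heavy chains were lower in cKO by their fitted change. It had 154, 275 and 323 CPM in MAR1, against 12.1, 8.25 and 15.2 CPM with isotype (log2 4.40 ± 1.04, adjusted p = 0.00455). Myf5, a regulator of muscle precursors, had 7.46, 16.6 and 21.3 CPM in MAR1 and 1.65, 0.115 and 0.817 CPM with isotype (log2 4.12 ± 1.10, adjusted p = 0.00801). Of the 7 tested genes on the satellite cell and developing muscle list, 1 was higher in cKO than in fl/fl (list median -2.18). In MAR1, 2 were higher than with isotype (list median 2.39), and none was lower in either comparison. Over all genes, 2656 of 20940 were called higher in cKO and 22.6% in MAR1. The cardiac calcium channel Ryr2 was higher in MAR1 as well, at 25.6, 55.2 and 70.2 CPM, against 3.85, 1.70 and 3.29 CPM with isotype (log2 4.09 ± 1.37, adjusted p = 0.0261). Of the 10 genes on the heart list, 2 were called higher in MAR1, 1 was called lower and 7 were not called. By fitted change, 6 of the 10 were higher and 4 lower. Within cKO, Myh8, Myf5 and Ryr2 were all highest in library 3, which had the highest receptor gene share of the group (2.58%). The part of these reads in the levels was not tested.

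The atrial light chain gene Myl7 ran the other way, with 0.943, 0 and 0.150 CPM in MAR1 and 19.0, 10.7 and 16.1 CPM with isotype (log2 -5.26 ± 1.37, adjusted p = 0.00848). It was at 0 in both untreated libraries and at 5.37, 3.99 and 107 CPM in fl/fl, highest in fl/fl library 3, as Tnni1 was. Trim63, a ubiquitin ligase of muscle atrophy chosen after its values were seen, had 16.3, 0.685 and 3.23 CPM in cKO, 35.3, 21.8 and 339 CPM in fl/fl, 25.3, 13.1 and 7.65 CPM in MAR1, 105, 106 and 106 CPM in isotype and 2.95 and 28.9 CPM in untreated skin. Its level in fl/fl library 3, the fl/fl library closest to isotype in muscle makeup, was above that in the other fl/fl libraries.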
